A study of Homo sapiens with 24 samples.

Results

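A set of 10 genes of the bone morphogenetic protein (BMP), activin and transforming growth factor-beta (TGF-beta) pathways were followed in C4-2B cells, a castration-resistant human prostate cancer line derived from LNCaP. They are the ligands BMP7, INHBB and GDF15, the antagonists FST and NBL1, the receptor BMPR1B, the feedback inhibitors SMAD6, SMAD7 and PMEPA1, and the target gene ID1. The 10 genes were picked by name, and they were chosen from genes whose differences on these same arrays were already known, so every value of theirs is given as a description and none as a test. They are 10 of 12438 genes tested, and 18 probes carry their symbols, of which 16 passed the detection filter. Expression was measured on 24 Illumina bead arrays. Before treatment, all cells spent 3 days in RPMI free of phenol red with 5% charcoal-stripped serum, a medium low in steroid hormones. They received a non-specific siRNA (siNS), an siRNA against the acetyltransferase gene EP300 (sip300) or an siRNA against its paralogue CREBBP (siCBP). Each siRNA was combined with 0 or 16 h of 10 nM dihydrotestosterone (DHT), the main ligand of the androgen receptor, which gave 6 groups of 4 arrays. The labels number the replicates 1 to 4 without naming separate cultures as their source, and the spread given here, like any p-value, is that between these samples, which may be technical. A single cell line was used, and in bulk RNA fewer cells of a type and less RNA per cell cannot be told apart.

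Ligands of this superfamily are secreted dimers that bring together type I and type II receptor kinases. The receptors phosphorylate SMAD proteins, which enter the nucleus with SMAD4 and switch target genes. BMPs act through SMAD1, SMAD5 and SMAD9, whereas TGF-beta and activins act through SMAD2 and SMAD3. Signalling is held in check outside the cell by proteins that bind the ligands, such as follistatin, and inside it by the inhibitory SMADs and PMEPA1, which pathway activity itself induces. p300 and CBP are coactivators of SMADs as well as of the androgen receptor, and in prostate epithelium TGF-beta and BMP signals are known to restrain growth.

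Promoter sequences (RefSeq, GRCh38.p14) were matched for 9 of the 10 genes, in 20 windows of bases around annotated gene starts. The 3 stretches of 60 bases upstream of a start come first because they hold the letters of an androgen receptor binding motif, AGAACA on either strand, which is in capitals. They come from chr15:66702125-66702184 on the plus strand, chr20:57710768-57710827 on the minus strand and chr20:31605082-31605141 on the plus strand, and the motif begins 84, 229 and 180 bases before the start.
SMAD6: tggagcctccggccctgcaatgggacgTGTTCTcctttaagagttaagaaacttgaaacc
PMEPA1: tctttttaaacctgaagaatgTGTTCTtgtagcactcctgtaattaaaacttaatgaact
ID1: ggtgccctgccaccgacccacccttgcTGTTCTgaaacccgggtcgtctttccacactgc
Of these 3 genes, PMEPA1 was called higher with DHT, and SMAD6 and ID1 were not. The motif also lies after the start in another PMEPA1 window and in a window of NBL1. NBL1 was called higher with DHT too. This motif was found in 5 of the 20 windows, and it is in 14.8% of all 35116 promoter windows of the table.

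The 250 bases upstream of GDF15 and of INHBB are shown because both genes were lower after the EP300 siRNA. They lie at chr19:18385908-18386157 and chr2:120345886-120346135, both on the plus strand. Capitals mark the SMAD box CAGAC in GDF15 and the BMP element GGCGCC in INHBB, each searched on both strands. The motifs searched do not overlap.
GDF15: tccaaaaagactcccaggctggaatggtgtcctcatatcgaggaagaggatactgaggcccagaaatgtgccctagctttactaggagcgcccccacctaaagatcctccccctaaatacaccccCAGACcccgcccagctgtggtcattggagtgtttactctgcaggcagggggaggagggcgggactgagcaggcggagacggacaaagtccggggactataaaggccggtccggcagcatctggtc
INHBB: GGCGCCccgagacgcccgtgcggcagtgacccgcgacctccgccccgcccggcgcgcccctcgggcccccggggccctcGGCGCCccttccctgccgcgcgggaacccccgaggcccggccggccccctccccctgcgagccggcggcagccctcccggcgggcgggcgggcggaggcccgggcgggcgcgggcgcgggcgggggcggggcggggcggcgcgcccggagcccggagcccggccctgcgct
The SMAD box was found in 9 of the 20 windows against 45.3% of all windows, and the BMP element in 3 of 20 against 19.2%. The letters are a description of the sequence, not of binding.

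The siRNAs lowered their own targets. In sip300 cells EP300 signal differed from siNS by -0.88 ± 0.23 (log2 difference ± SE) without and -1.19 ± 0.23 with DHT, and in siCBP cells CREBBP differed by -1.68 ± 0.19 and -1.74 ± 0.19 (limma adjusted p = 0.0181, 0.00196, 1.03e-04 and 5.65e-05). The androgen-induced genes FKBP5 (2.70 ± 0.15) and TMPRSS2 (2.41 ± 0.34) rose with DHT in siNS cells (limma adjusted p = 1.74e-10 and 9.73e-05). Between 17663 and 19830 probes were detected per array. Of 10 luminal prostate markers on the array, 8 were detected on every array (KRT8, KRT18, HOXB13, FOLH1, STEAP2, TMPRSS2, CDH1 and EPCAM), and the group mean of the list lay between 9.61 and 10.6 on the log2 scale. No basal, stromal, leukocyte or neuroendocrine marker was detected on every array, and the basal keratins KRT5 and KRT14 were detected on none. From those lists, ACTA2 rose with sip300 relative to siNS by 1.64 ± 0.35 without DHT and 1.51 ± 0.35 with DHT (limma adjusted p = 0.00538 and 0.00667). ITGB4 was detected only on sip300 arrays, 3 without and 2 with DHT, and it passed the filter only through them. It was at least 1.34-fold higher with sip300 than with siNS without DHT, with measured means of 6.21 against 5.47. With DHT its measured means were 5.76 against 5.08, and nothing is read from its calls. Among luminal markers, 0 rose and 1 fell with sip300 relative to siNS without DHT, and 0 rose and 3 fell with DHT. They were TMPRSS2, with differences of -1.89 ± 0.34 and -2.15 ± 0.34, and with DHT KLK2 (-1.96 ± 0.44) and KRT19 (-1.48 ± 0.44), at limma adjusted p = 0.00145, 2.87e-04, 0.00475 and 0.0257. The group means of the 4 lists stayed between 4.98 and 5.54, and the part of these markers, luminal ones included, in the results below was not tested.

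A gene is called here where its Benjamini-Hochberg adjusted p in limma, over all 12438 genes, was under 0.05. With DHT in siNS cells, 2 of the 10 genes were called, NBL1 and PMEPA1, both higher, where 2.69% of all genes were called. The same pair was called higher with DHT in sip300 cells, where the background was 0.708%. BMPR1B joined them in siCBP cells, making 3 of 10 against 2.23%. The median difference of the 10 genes was 0.35, 0.05 and 0.32 on the log2 scale in the siNS, sip300 and siCBP arms, and that of all genes -0.02 in each. The 3 DHT comparisons use different arrays.

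Against siNS without DHT, sip300 had 5 of the 10 genes called against 9.97% of all genes, with BMP7, INHBB, GDF15 and PMEPA1 lower and FST higher. With DHT it had 4 against 14.6%, with BMP7, INHBB and GDF15 lower and FST higher. The FST probe passed the detection filter only through sip300 arrays, where it is high. Nothing is therefore read from its part in these counts or in those below. The medians of the 10 genes were -0.08 and 0.07, and those of all genes 0.03 and 0.03. siCBP had 0 of the 10 called at either time, where 0.0482% of all genes were called by limma in each. Unadjusted limma p-values under 0.05 for siCBP against siNS numbered 582 without DHT and 584 with it, of 12438 genes. Among the 10 genes there were 1 and 2. A threshold of 0.05 passes about that share of genes by chance, which neither count exceeded, so no difference is read from them. Against siCBP, sip300 had 4 of 10 called without DHT (BMP7, GDF15 and PMEPA1 lower, FST higher) against 6.01%, and 4 with DHT (BMP7, INHBB and GDF15 lower, FST higher) against 9.7%. The sip300 and siCBP comparisons share the siNS arrays, and those against siCBP share the sip300 arrays, so they are not separate observations.

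The replicate numbers pair the samples. Standard errors and fits that leave out an array, here and below, come from the fit without the number, so they ignore this pairing. Some calls were also made with the number as a block in the fit. For DHT, 3 of the 10 genes were then called in siNS and in sip300 cells, adding BMPR1B, against 5.93% and 1.65% of all genes, and 4 in siCBP cells, adding GDF15, against 4.9%. For sip300 against siNS, 6 were called without DHT, adding ID1, against 20.9%, and 5 with DHT, adding SMAD6, against 24.9%. For sip300 against siCBP, 6 were called without DHT, adding INHBB and ID1, against 15.5%, and 5 with DHT, adding PMEPA1, against 19.4%. For siCBP against siNS, 0 of the 10 were called with the block, against 0.129% and 0.185%. Whether the DHT difference itself depended on the siRNA was fitted as an interaction, and 0 of the 10 genes were called in any of the 3 interactions. Over all genes, 0.00804% were called for sip300 against siNS, 0% for siCBP against siNS and 0% for sip300 against siCBP in limma. Unadjusted limma p-values under 0.05 numbered 375, 196 and 343 of the 12438 genes, with 1, 1 and 0 among the 10 genes. None of these counts over all genes exceeded what that threshold passes by chance.

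**Figure D1:**
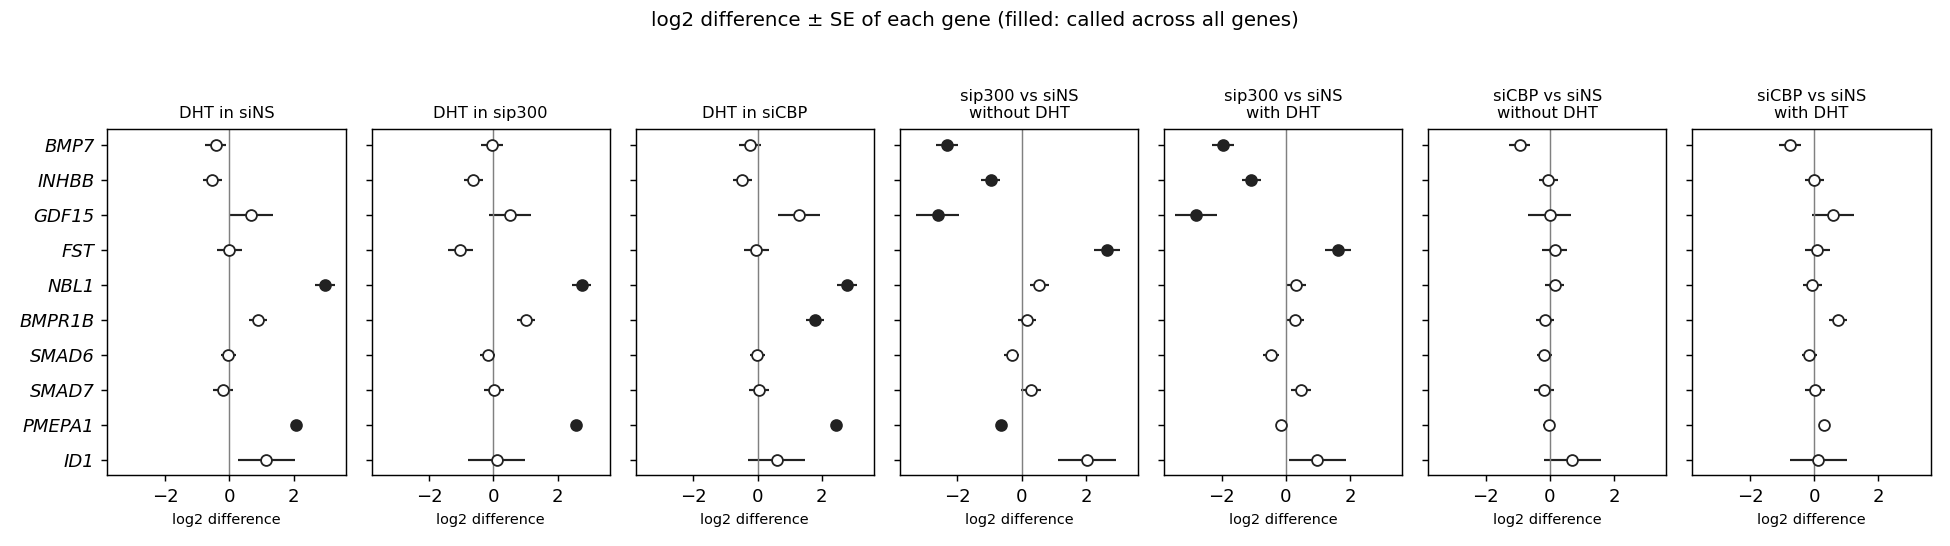
The log2 difference of each of the 10 genes (horizontal axis, with the standard error as a bar) in 3 DHT comparisons and 4 siRNA comparisons. Filled points were called over all 12438 genes, and the FST and BMPR1B differences against groups with no detected array are measured values, not bounds. NBL1 and PMEPA1 stand at 2.08 or above with DHT in every arm, and BMP7, INHBB and GDF15 lie on the left and FST on the right in both sip300 panels.

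BMP7, a BMP ligand of the group that signals through SMAD1, SMAD5 and SMAD9, was lower after the EP300 siRNA at both times. Its log2 signal in siNS cells was 9.57, 9.03, 9.17 and 10.24 without DHT and 9.02, 8.80, 8.87 and 9.59 with DHT, in order of replicate number. In sip300 cells it was 6.37, 6.99, 7.18 and 8.12 without DHT and 6.40, 6.88, 7.38 and 7.81 with DHT. Every sip300 array was below every siNS array of the same DHT time. In these comparisons 13.3% and 19% of all genes had no overlap between the groups, in either direction. The BMP7 difference was -2.34 ± 0.34 without DHT, which is 5.05-fold lower, and -1.95 ± 0.34 with DHT, 3.87-fold lower. It was -2.28 on the first slide and -2.39 on the second without DHT, and -2.09 and -1.82 with DHT.

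BMP7 lay between the other arms in siCBP cells, at 8.14, 8.48, 8.59 and 9.01 without DHT and, once treated, at 7.77, 8.28, 8.47 and 8.72. All siCBP arrays were below all siNS arrays of their DHT time, by -0.95 ± 0.34 and -0.76 ± 0.34, and neither difference was called. Groups without overlap, in either direction, were found for 2.67% and 3.13% of all genes in these comparisons. In order of group means, BMP7 was at 9.50 and 9.07 in siNS cells without and with DHT, 8.55 and 8.31 in siCBP cells, and 7.16 and 7.12 in sip300 cells. The DHT differences were -0.43, -0.05 and -0.24 in the siNS, sip300 and siCBP arms (± 0.34 each), so neighbours within an arm overlapped and none was called. Against siCBP, sip300 was at -1.39 ± 0.34 without DHT and -1.19 ± 0.34 with DHT. The first of these calls ended without siCBP replicate 4 or sip300 replicate 1 (0 h), and the second without siCBP replicates 2, 3 or 4 or sip300 replicates 1 or 2 (16 h). The difference then ranged from -1.71 to -1.12 and from -1.42 to -0.96.

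GDF15, a stress-induced ligand that is a distant member of the TGF-beta superfamily, showed the largest decrease of the 10 genes with sip300. The siNS arrays read 9.14, 11.27, 9.37 and 10.99 without DHT and 9.68, 12.79, 9.82 and 11.25 with DHT. In sip300 cells it was 6.53, 7.90, 7.42 and 8.43, and then 7.21, 8.63, 7.60 and 8.89. The groups did not overlap at either time, although the siNS arrays themselves spread over more than 2 log2 units. No overlap was found for 13.3% and 19% of all genes. The differences were -2.62 ± 0.66 without DHT (6.15-fold lower) and -2.80 ± 0.66 with DHT (6.97-fold lower). The call without DHT ended without sip300 replicate 1 (0 h) or siNS replicate 4 (0 h), with differences of -2.97 to -2.26 over the 8 fits that each left out an array. With the replicate block GDF15 was called at both times. The differences between arrays of equal number without DHT were -2.61, -3.37, -1.95 and -2.56. In siCBP cells GDF15 was at 9.75, 11.31, 9.14 and 10.54, and then 10.79, 12.64, 10.61 and 11.85, which overlapped the siNS values. Against siCBP, sip300 was lower by -2.61 ± 0.66 and -3.39 ± 0.66, the latter 10.5-fold. The call without DHT ended without siCBP replicates 2 or 4 or sip300 replicate 1 (0 h), over a range of -2.96 to -2.24.

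With DHT, GDF15 was higher in 4 of 4 pairs of equal replicate number in each arm. The differences in the siNS, sip300 and siCBP arms were 0.69 ± 0.66, 0.51 ± 0.66 and 1.29 ± 0.66, and none was called without the block. The level of GDF15 varied with replicate number, with number 2 highest in 4 of 6 groups and number 1 lowest in 4. The SD within groups was 1.03, and 0.44 once the number was fitted. On the first slide the DHT difference in siNS cells was 2.76 and on the second -1.38, and the slides hold different replicate numbers of a group.

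INHBB, which encodes the beta-B subunit of activin and inhibin dimers, was lower with sip300 by -0.97 ± 0.30 without DHT and -1.07 ± 0.30 with DHT. Its log2 signal in siNS cells was 9.14, 8.28, 7.54 and 8.47 and then 8.33, 7.49, 7.44 and 8.04. In sip300 cells it was 7.11, 7.78, 7.22 and 7.43 and then 6.50, 7.22, 6.58 and 6.72. The 2 arms overlapped without DHT and did not with DHT, where 19% of all genes had no overlap. Without DHT the call ended in 6 of 8 fits that each left out an array (all but siNS replicate 3 and sip300 replicate 2), with differences of -1.24 to -0.71. With DHT it ended without siNS replicates 1 or 4 or sip300 replicates 1 or 3, with -1.23 to -0.90. In siCBP cells INHBB was at 8.66, 8.28, 7.72 and 8.55 and then 7.80, 8.25, 7.18 and 8.06, a difference from siNS of -0.05 ± 0.30 and 0.00 ± 0.30. Against siCBP with DHT, sip300 was lower by -1.07 ± 0.30, a call that ended in 6 of 8 such fits (all but siCBP replicate 3 and sip300 replicate 2). With DHT, INHBB was lower in 4 of 4 pairs in each arm, by -0.53, -0.63 and -0.48 in the siNS, sip300 and siCBP arms (± 0.30 each), and no difference was called.

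**Figure D2:**
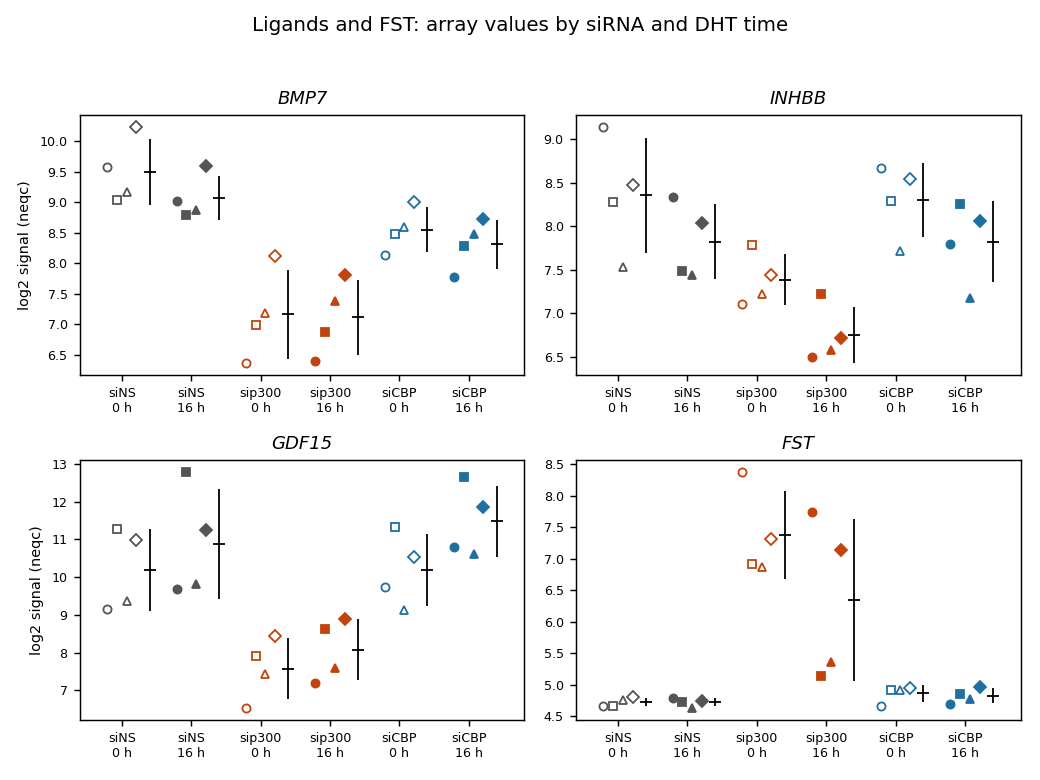
The log2 signal (vertical axis) of BMP7, INHBB, GDF15 and FST on each array of the 6 groups. Circles, squares, triangles and diamonds are replicates 1, 2, 3 and 4, filled with DHT and open without, and the cross with its bar is the group mean with 1 SD (n = 4). The sip300 group means are the lowest for BMP7, INHBB and GDF15 and the highest for FST.

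FST encodes follistatin, which binds activins and some BMPs and blocks them. It was detected only on sip300 arrays. Its log2 signal there was 8.38, 6.92, 6.87 and 7.32 without DHT, all 4 detected, and 7.74, 5.14, 5.36 and 7.14 with DHT, of which 2 were detected. On the siNS arrays it ran from 4.63 to 4.80 and on the siCBP arrays from 4.66 to 4.97, where none was well above background. Relative to siNS, FST in sip300 cells was therefore higher by at least 3.01-fold at 0 h and at least 1.43-fold at 16 h of DHT. These bounds set the sip300 mean against the lowest signal that counts as detected, and the measured means were 7.37 against 4.72 and 6.35 against 4.72. Against siCBP the bounds were 2.95-fold and 1.41-fold.

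Within sip300 cells FST differed by -1.03 ± 0.39 with DHT, lower in 4 of 4 pairs, and this was not called. On the second slide alone it differed by -2.60, where it was called, and on the first by 0.55. In these cells the second slide holds replicates 2 and 3 with DHT and 1 and 4 without, and the first slide the reverse. Slide and replicate number thus cannot be told apart here. The arrays with signal near 5 are sip300 replicates 2 and 3 with DHT, both below detection. The FST probe passed the detection filter only through sip300 arrays, the group where it is high, so nothing is read from its calls. With DHT, the calls against siNS and siCBP ended on the second slide alone (0.55 and 0.52) and in fits of only the groups compared (1.63 and 1.52), and that against siCBP also without sip300 replicate 1 or 4 (16 h), with differences from 1.06 to 1.93. A second FST probe, for another transcript, was detected on 0 of 24 arrays.

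NBL1, a secreted protein of the DAN family that binds BMPs, had the largest DHT difference of the 10 genes in each arm. On the log2 scale siNS arrays read 7.42, 7.33, 7.17 and 7.13 without DHT and 10.54, 10.86, 9.65 and 9.94 with DHT. In sip300 cells it was 7.85, 7.88, 7.99 and 7.53, and then 11.57, 10.78, 9.95 and 9.96. In siCBP cells it was 7.70, 7.46, 7.36 and 7.12, and then 10.61, 10.48, 9.52 and 10.20. Every array with DHT was above every array without it, in all 3 arms. No overlap, in either direction, was found for 7.47%, 3.3% and 6.09% of all genes in the siNS, sip300 and siCBP arms. The NBL1 differences were 2.99 ± 0.30, 2.75 ± 0.30 and 2.79 ± 0.30, or 7.92-fold, 6.73-fold and 6.91-fold. The DHT difference in sip300 cells minus that in siNS cells was -0.23 ± 0.43, and in siCBP cells minus siNS cells -0.20 ± 0.43, each within its error.

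The second NBL1 probe gave DHT differences of 3.12, 2.53 and 2.98 in the siNS, sip300 and siCBP arms. Without DHT the first probe was higher with sip300 than with siNS by 0.55 ± 0.30, in 4 of 4 pairs and with no overlap. This difference was not called, and 13.3% of all genes had no overlap in that comparison.

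PMEPA1, an androgen-induced membrane protein that holds back TGF-beta signalling by binding SMAD2 and SMAD3, was also higher with DHT in each arm. Signal in siNS cells was 9.30, 9.50, 9.14 and 9.08 without DHT and 11.22, 11.60, 11.19 and 11.33 with DHT. In sip300 cells it went from 8.71, 9.04, 8.40 and 8.35 to 11.27, 11.12, 11.16 and 11.21. In siCBP cells it went from 9.49, 9.41, 8.90 and 9.04 to 11.66, 11.65, 11.45 and 11.87. The groups with and without DHT were more than 1 log2 unit apart in each arm. The differences were 2.08 ± 0.16, 2.56 ± 0.16 and 2.45 ± 0.16, or 4.23-fold, 5.92-fold and 5.45-fold.

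Without DHT, PMEPA1 was lower with sip300 than with siNS by -0.63 ± 0.16 and lower than with siCBP by -0.59 ± 0.16. With DHT the sip300 values lay at -0.15 ± 0.16 from siNS, and PMEPA1 was then at nearly the same level in these arms. Against siCBP with DHT it was still lower with sip300 in each pair, by -0.40, -0.54, -0.28 and -0.65, with no overlap. In that comparison 15.4% of all genes had no overlap, and PMEPA1 was called only with the block and in some other alternatives. Without DHT, the call against siNS ended without sip300 replicate 3 or 4 (0 h), over a range of -0.77 to -0.54. That against siCBP ended without sip300 replicates 1, 3 or 4 or siCBP replicates 1 or 2 (0 h), over -0.72 to -0.49. Taking the mean of the gene's probes ended both calls. A second probe of the same transcript gave DHT differences of 1.98, 2.32 and 2.58 in the siNS, sip300 and siCBP arms, and a dim probe of another transcript, detected on 9 of 24 arrays, gave 1.19, 0.83 and 1.07. The fourth probe was detected on 1 array. PMEPA1 and BMP7 lie 382 kb apart on chromosome 20 (GRCh38.p14, 57648396 to 57711472 and 57168753 to 57266641).

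**Figure D3:**
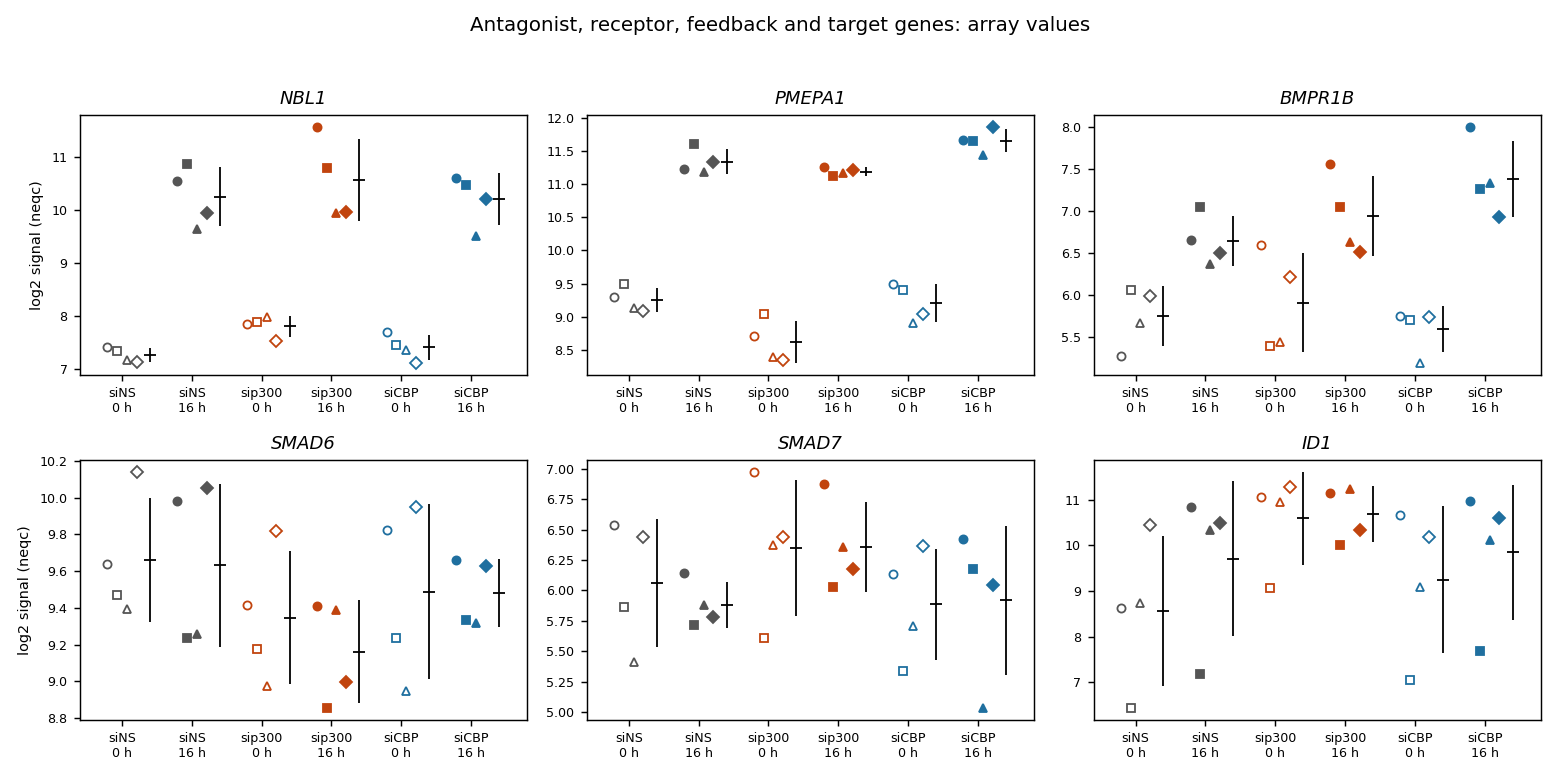
The log2 signal (vertical axis) of NBL1, PMEPA1, BMPR1B, SMAD6, SMAD7 and ID1 on each array of the 6 groups. Circles, squares, triangles and diamonds are replicates 1 to 4, filled with DHT and open without, and the cross with its bar is the group mean with 1 SD (n = 4). NBL1 and PMEPA1 with DHT stand clear of the arrays without it, SMAD6 and SMAD7 overlap across groups, and the ID1 squares (replicate 2) are the lowest of each group.

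BMPR1B, a type I BMP receptor, was dim, and its probe was detected on 16 of 24 arrays. Its log2 signal in siCBP cells was 5.75, 5.70, 5.19 and 5.74 without DHT, not well above background on any array, and 8.004, 7.26, 7.33 and 6.93 with DHT, detected on all 4. It was therefore at least 2.97-fold higher with DHT, with measured means of 7.38 against 5.59. In siNS cells it was at 5.28, 6.06, 5.66 and 5.99 and then 6.66, 7.05, 6.36 and 6.50, and in sip300 cells at 6.59, 5.40, 5.44 and 6.21 and then 7.56, 7.04, 6.62 and 6.52. The values with DHT were higher in 4 of 4 pairs in both arms, by 0.90 ± 0.28 and 1.03 ± 0.28, and these were called with the replicate block and not in the fit without it. Without sip300 replicate 1 (0 h) the second was called too, at 1.26. The second BMPR1B probe, detected on 11 arrays, gave DHT differences of 0.03, 0.89 and 0.72 in the siNS, sip300 and siCBP arms, against 0.90, 1.03 and 1.79 of the first probe. Only the second probe is annotated to a RefSeq transcript, and the calls and the bound above rest on the first.

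SMAD6 and SMAD7 are the inhibitory SMADs, which block receptor access and mark receptors for degradation. Neither was called in any of the 12 comparisons without the block. SMAD6 signal ran from 8.86 to 10.14 over the 24 arrays. Its DHT differences were -0.03, -0.18 and -0.01 in the siNS, sip300 and siCBP arms (± 0.24 each), and it was lower with sip300 than with siNS by -0.31 ± 0.24 and -0.47 ± 0.24. SMAD7 ran from 5.04 to 6.97 and was detected on 17 arrays, with DHT differences of -0.18, 0.01 and 0.04 (± 0.31 each). Against siNS, sip300 gave 0.29 ± 0.31 without DHT and 0.48 ± 0.31 with DHT. All SMAD6 and SMAD7 groups overlapped one another in the 9 comparisons of 2 groups.

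ID1, an inhibitor of helix-loop-helix factors and the classical BMP target, had the widest spread of the 10 genes within groups. Its log2 signal in siNS cells was 8.62, 6.44, 8.73 and 10.44 without DHT and 10.83, 7.18, 10.34 and 10.50 with DHT. In sip300 cells it was 11.06, 9.07, 10.96 and 11.28 and then 11.16, 10.01, 11.25 and 10.34. In siCBP cells it was 10.67, 7.04, 9.10 and 10.18 and then 10.98, 7.69, 10.11 and 10.61. Replicate 2 was the lowest array in 6 of 6 groups, whatever the siRNA or DHT. The SD within groups was 1.40, and 0.66 once the replicate number was fitted.

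Without DHT, ID1 was higher with sip300 than with siNS in 4 of 4 pairs, by 2.03 ± 0.89, and than with siCBP in 4 of 4 pairs, by 1.34 ± 0.89. Both were called with the block and not in the fit without it. Without replicate 2 of every group, an alternative chosen after seeing the data, the first was also called. With DHT the sip300 difference from siNS was 0.98 ± 0.89. DHT itself gave 1.16, 0.10 and 0.60 in the siNS, sip300 and siCBP arms (± 0.89 each), higher in 4, 3 and 4 of 4 pairs. A second, dimmer ID1 probe was detected on 15 arrays. It gave 0.38, 0.23 and 0.43 for DHT in the siNS, sip300 and siCBP arms, and 0.62 and 0.47 for sip300 against siNS without and with DHT.

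**Figure D4:**
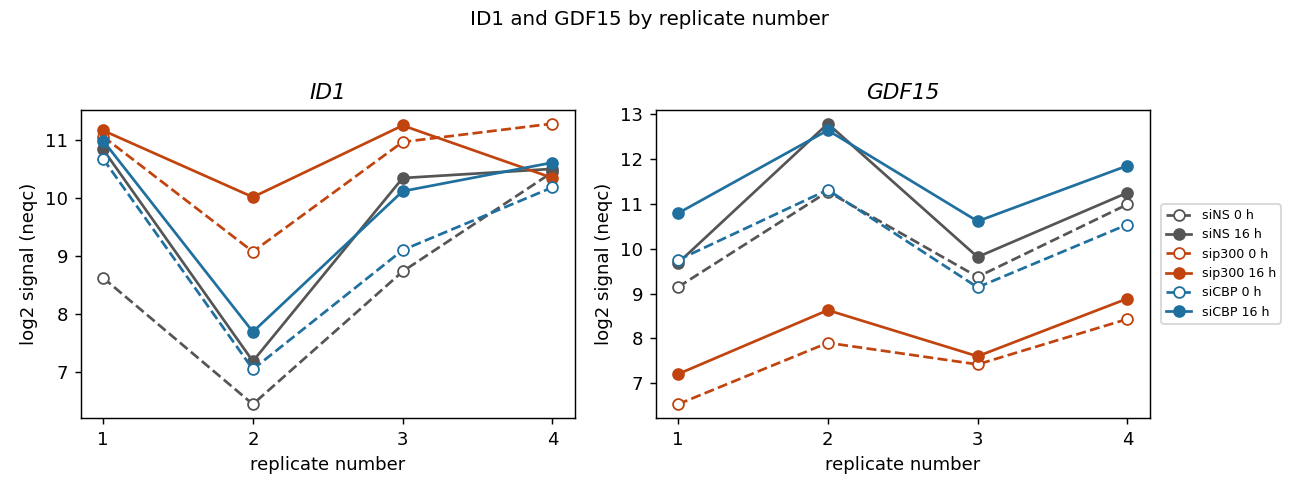
The log2 signal (vertical axis) of ID1 and GDF15 against replicate number (horizontal axis), with 1 line for each of the 6 groups. ID1 dips at replicate 2 in all 6 groups, while GDF15 at replicate 2 is the highest of its group in 4 of 6 groups. The lines join arrays of equal siRNA and DHT time and have no order in time.

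**Figure D5:**
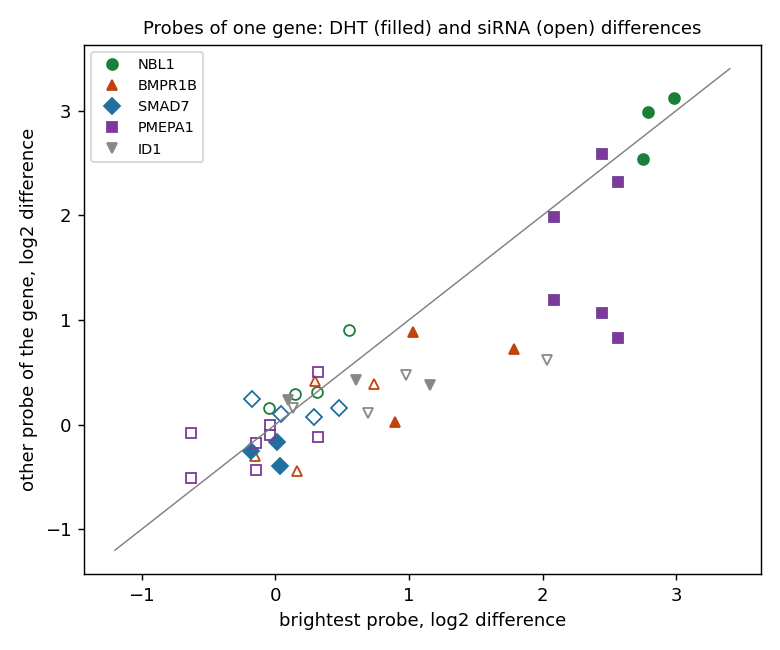
For genes with several detected probes, the log2 difference of the other probes (vertical axis) against that of the brightest probe (horizontal axis), in 3 DHT comparisons (filled) and 4 siRNA comparisons (open). The line marks equality. NBL1 and 1 PMEPA1 probe lie near the line, the other PMEPA1 probe falls below it, and BMPR1B and ID1 lie below it at their largest differences.

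Likeness to other genes was described over the same 24 arrays, which share siRNA, DHT, slide and replicate number, so no p is given. NBL1 followed the co-chaperone gene FKBP5 (r = 0.963) and RHOU (0.956), and PMEPA1 followed LPAR3 (0.973) and FKBP5 (0.961). FST followed TRPC1 (0.954) and REEP2 (0.95), BMP7 followed PHLDA2 (0.908) and NEK6 (0.897), and GDF15 followed AK4 (0.901) and APOD (0.872). ID1 followed its paralogue ID3 (0.896) and DDX19A (0.862), and INHBB followed GALK1 (0.868) and PPP1R1B (0.865). BMPR1B was closest to MAK (0.889) and SCAP (0.848), SMAD6 to LPL (0.847) and S1PR3 (0.835), and SMAD7 to RAB11FIP5 (0.874) and STAT5A (0.797). Among the 10 genes, the highest correlation over the 24 arrays was that of NBL1 with PMEPA1 (0.915), and FST ran opposite to GDF15 (-0.736) and BMP7 (-0.732). FST was detected on 6 of the 24 arrays, all of them sip300, so its correlations largely set sip300 arrays against background signal.

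Beyond these 10 genes, 106 others of the pathways were listed, and 58 of them were tested. With DHT, the zinc-finger repressor gene SNAI2 was at least 4.21-fold higher in siNS cells, detected on 0 of 4 arrays without DHT and on 4 with it, with measured means of 7.86 against 5.30 (limma adjusted p = 1.70e-05). It rose by 2.16 ± 0.32 in siCBP cells, where 1 of 4 arrays detected it without DHT (limma adjusted p = 1.71e-04). BAMBI, a decoy receptor that lacks a kinase, fell in the same arms, with differences of -1.10 ± 0.28 and -1.21 ± 0.28 (limma adjusted p = 0.0346 and 0.0201). In sip300 cells BAMBI was at -0.97 ± 0.28 (limma adjusted p = 0.204, and 0.0107 with the replicate block). TSC22D1, a TGF-beta-stimulated leucine-zipper gene, rose by 0.95 ± 0.24 in siNS cells (limma adjusted p = 0.0269). In siNS cells 2 of the 58 were thus higher and 1 lower (5.17%, against 2.69% of all genes). In siCBP cells limma called 1 higher and 1 lower (3.45%, against 2.23%), and in sip300 cells 0 and 0 (against 0.708%). In sip300 cells 10 of the 58 had an unadjusted limma p under 0.05, beside 674 of all 12438 genes. The calls fell to 1 in siNS cells without siNS replicate 1 (16 h) or 4 (0 h). They fell to 1 in siCBP cells without siCBP replicate 4 (16 h), 2 or 3 (0 h), and rose to 4 without siCBP replicate 1 (0 h). In sip300 cells they reached 1 without replicate 1 or 2 and 2 without replicate 3 (16 h). With the replicate block 5 of 58 were called in sip300 and 6 in siCBP cells, against 1.65% and 4.9% of all genes.

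Between sip300 and siNS, 4 of the 58 genes rose and 3 fell without DHT, and 5 rose and 7 fell with DHT. These are 12.1% and 20.7% of the list, beside 9.97% and 14.6% of all genes, and nothing particular to the list is read from the counts. The receptor gene TGFBR2, called higher with DHT here and against siCBP, passed the filter only through sip300 arrays, so nothing is read from its calls. Among antagonists and ligand-binding proteins, FSTL1, a secreted relative of follistatin, rose by 1.68 ± 0.33 without DHT and 1.40 ± 0.33 with DHT (limma adjusted p = 0.00255 and 0.00657). TWSG1, which modulates BMP binding by chordin, fell by 0.81 ± 0.23 at both times (limma adjusted p = 0.0266 and 0.0210). THBS1, an activator of latent TGF-beta, fell by 2.01 ± 0.56 with DHT (limma adjusted p = 0.0189). LTBP2, a latent TGF-beta binding protein, rose by 1.26 ± 0.31 without DHT (limma adjusted p = 0.0116). TMEFF2, a membrane protein with follistatin-like domains, was picked out after its values were seen, and was at 3.79 ± 1.45 without DHT (limma adjusted p = 0.0992, and 2.32e-04 with the replicate block).

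Among receptors, BMPR2, the type II BMP receptor, rose by 0.77 ± 0.20 and 0.97 ± 0.20 (limma adjusted p = 0.0164 and 0.00278). RGMB, a BMP co-receptor, fell by 0.96 ± 0.25 with DHT (limma adjusted p = 0.0128). AMHR2, the receptor of anti-Müllerian hormone, fell, with differences of -1.80 ± 0.52 and -1.59 ± 0.52 (limma adjusted p = 0.0318 and 0.0439), and so did BAMBI, with -1.09 ± 0.28 and -0.95 ± 0.28 (limma adjusted p = 0.0165 and 0.0272). Of the SMAD regulators, the deubiquitinase gene USP15 rose by 0.95 ± 0.21 and 0.86 ± 0.21 (limma adjusted p = 0.00709 and 0.0101). TGIF2, a SMAD corepressor, rose by 0.74 ± 0.20 with DHT (limma adjusted p = 0.0156). SNAI2 fell by 1.26 ± 0.32 with DHT (limma adjusted p = 0.0102). Of 4 TGF-beta and activin ligand genes, 0 were called between sip300 and siNS by limma and 0 had an unadjusted p under 0.05.

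The median of the 58 genes was -0.0029 without DHT and 0.08 with DHT, against 0.03 and 0.03 for all genes. With the block 15 of the 58 were called without DHT, against 20.9% of all genes, and without siNS replicate 1 (16 h) 7 were called with DHT. Between siCBP and siNS 0 of the 58 were called by limma, with or without the replicate block. An unadjusted limma p under 0.05 was found for 6 of the 58 without and 4 with DHT, beside 582 and 584 of all 12438 genes. Between sip300 and siCBP, 2 rose and 2 fell without DHT and 6 rose and 3 fell with DHT, which is 6.9% and 15.5% of the list against 6.01% and 9.7% of all genes. With the block 10 and 17 were called, against 15.5% and 19.4% of all genes. The counts without the block fell to 2 without sip300 replicate 1 or siCBP replicate 2 (0 h), and to 2, 4, 3 and 5 without sip300 replicates 1 or 3 or siCBP replicates 1 or 2 (16 h). SMAD9, a BMP-activated SMAD, rose by 0.82 ± 0.23 with sip300 relative to siCBP with DHT (limma adjusted p = 0.0258). ID2, a paralogue of ID1, was higher with sip300 than with siCBP without DHT by 1.44 ± 0.33 (limma adjusted p = 0.0105).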

How the data were processed

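Total RNA from 24 C4-2B samples was hybridised to Illumina bead arrays. The deposited signal table holds mean bead intensity per probe, not normalised, with a detection p-value beside each, per the file headers. The authors' processed log2 values, used as an alternative, correlated with the values computed here at 0.9982 or more on each array. limma is named in the submitters' processing notes. The other steps are not given in the sources used here.

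Intensities were normalised with neqc (limma 3.58.1, R 4.3.3, offset 16) on 48118 rows, after which 887 control rows were dropped. The filter kept 23038 probes, those with a detection p under 0.05 on 4 or more of the 24 arrays. The brightest probe stood for each of 12438 genes, and all 12 contrasts came from 1 linear model of the 6 groups with 18 residual degrees of freedom. P-values were adjusted within a contrast (Benjamini-Hochberg). The number of arrays limits precision.

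The 10 genes, the pathway lists and the markers were chosen with earlier results of these data known. The rule named every one of the 10 genes, up to 4 called genes of each pathway list by size of difference, and the 2 most alike genes. Same-numbered arrays of different groups deviated together (60 pairs, lowest r 0.15, median 0.335, against -0.14 for different numbers), so the numbers pair the samples. Each slide holds 2 arrays of every group. Alternatives were the replicate or slide block, each slide, other normalisations, filters, probes and omitted arrays. The fit was also tested on simulated data.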

Additional observations from a re-analysis of the deposited data

Results flagged for a closer look

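In 4 of 60 sets of 4 arrays (10 genes in 6 groups), 1 array lay far from the others, its gap to the nearest divided by the range exceeding Dixon's 95% critical value. Chance alone gives this in about 5% of such sets. FST read 4.66 in siCBP cells without DHT on replicate 1, against 4.91 on the nearest array, both below detection. BMPR1B read 5.19 in siCBP cells without DHT on replicate 3, against 5.70, also below detection. ID1 read 7.18 on replicate 2 of siNS with DHT, against 10.34, and 9.07 on replicate 2 of sip300 without DHT, against 10.96. Both ID1 arrays carry replicate number 2, which was lowest for ID1 in 6 of 6 groups.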

How the results depend on the processing

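No difference of the 10 genes reversed a call, and 2398 of 2484 recomputed values moved by less than the spread between replicates. NBL1 and PMEPA1 remained called with DHT in each arm wherever an array was left out. The ranges that follow are over the fits that left out an array and the fit without replicate 2 of every group. In the order siNS, sip300 and siCBP for DHT, then sip300 against siNS and against siCBP (each without and with DHT), these gave 2 to 2, 2 to 3, 3 to 3, 3 to 5, 3 to 4, 1 to 5 and 1 to 3 calls among the 10 genes. Among the 58 pathway genes they gave 1 to 3, 0 to 2, 1 to 4, 5 to 7, 7 to 11, 2 to 5 and 2 to 9. For siCBP against siNS both stayed at 0 to 0, as did the calls among the 10 genes in the interactions. The cause of the moves below was not tested, except that a single slide or only the compared groups leave fewer arrays in the fit. A single slide also does not hold the same replicate numbers of every group.

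The replicate block gave 5, 6, 15, 10 and 17 pathway calls (DHT in sip300 and siCBP, sip300 against siNS without DHT, sip300 against siCBP without and with DHT), and beyond the calls named above it changed none of the 10 genes. The slide block gave 4 for DHT in siCBP, where 313 of all genes were called. Over all genes the main fit called 335, 88, 277, 1240, 1815, 748 and 1206 in the order above. The first slide called 67, 47, 38, 44, 428, 160 and 183 of all genes, and the second 64, 32, 64, 172, 40, 124 and 17. The first slide alone gave 1, 1, 0, 0, 5, 1 and 3 pathway calls in the order above, and 1, 1 and 2 of the 10 genes for sip300 against siNS without DHT and against siCBP without and with DHT. The second slide alone gave 1 pathway call for DHT in sip300, 4 and 0 for sip300 against siNS and 0 against siCBP with DHT, and 2, 0, 1 and 0 of the 10 genes for sip300 against siNS and siCBP. The authors' processed values gave 4 of the 10 genes for DHT in siNS (with BMPR1B and ID1), 1 (BMP7) for siCBP at each time, and 10, 8, 9, 20, 15 and 22 pathway calls (DHT in siNS, sip300 and siCBP, sip300 against siNS without DHT, against siCBP without and with DHT). In the comparisons of these pathway calls, the authors' values called 1341, 379, 1058, 3817, 3162 and 3578 of all genes. For siCBP against siNS they called 106 without and 143 with DHT, where the main fit called 6 in each. The mean of a gene's probes gave 1 pathway call for DHT in sip300, where 95 of all genes were called. Fits of only the groups compared gave 3 (BMP7, GDF15 and FST) and 2 (GDF15 and FST) of the 10 genes for sip300 without DHT against siNS and siCBP, and 1, 4 and 3 pathway calls for DHT in siCBP, sip300 against siNS without DHT and sip300 against siCBP with DHT. Over all genes these fits called 545 and 283 for sip300 without DHT against siNS and siCBP. They called 169 for DHT in siCBP and 734 for sip300 against siCBP with DHT. FST, BMPR1B and SMAD7 sit near background, so signal limits their differences.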
